A study of Mus musculus with 12 samples.

Results

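MC3T3 sc4 cells, a subclone of a mouse calvarial pre-osteoblast line, were compared after 6 days of osteogenic culture with bone morphogenetic protein 2 (BMP2) at 50 ng/ml and without it. The comparison was made in both matched pairs of the design. One pair set BMP2 at 50 ng/ml against vehicle. The other set BMP2 at 50 ng/ml plus 5 µM GSK126, an inhibitor of the histone methyltransferase EZH2, against 5 µM GSK126 alone. A change was kept only where both pairs moved the same way. These are 4 of the 12 libraries of the study, which has 1 library for each combination of day (1 or 6), BMP2 dose (0, 10 or 50 ng/ml) and presence or absence of GSK126. All cells came from the C57BL/6 strain, were at passage 12 and were held in medium with 10% serum, 50 µg/ml ascorbic acid and 4 mM β-glycerol phosphate, with medium and agents renewed after 3 days. The libraries at 10 ng/ml were not part of the contrast. They entered the fit with a term of their own, and so added to the estimates of the spread and of the GSK126 effect.

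BMP2 is a secreted growth factor of the TGF-beta family that binds paired serine/threonine kinase receptors. The receptors phosphorylate SMAD proteins, which enter the nucleus with SMAD4 and switch on direct targets, among them Id genes and the inhibitory SMADs that feed back on the pathway. In osteoblast precursors this signalling acts with the transcription factors RUNX2 and osterix (Sp7) to bring on bone matrix genes, and BMP2 is known for its capacity to induce bone.

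Each condition was 1 library, so neither pair has a replicate of its own. No label states whether separate cultures were used, so p-values may not cover the spread between cultures. The spread behind each p-value is what an additive fit of the 6 libraries of day 6 leaves over, with 2 residual degrees of freedom. That remainder holds any difference of the BMP2 effect between GSK126 levels together with noise. A gene whose pairs differ in size therefore passes less readily. Values after ± are standard errors of fitted log2 fold changes over these 6 libraries. A gene is said to have risen or fallen where its adjusted p was at most 0.05 and both pairs agreed in sign. Levels are CPM, counts scaled to library size with TMM factors. Every count was even, and a count divided by 2 is called a read pair here. The 4 libraries held 80015906 to 94783654 counts. The ribosomal RNA precursor Rn45s took 21.66% of counts with BMP2 and 15.4% with vehicle, and 13.1% with BMP2 plus GSK126 and 14.47% with GSK126 alone; leaving it out of the library sizes gave 1663 calls, as with it. In bulk RNA, fewer cells of a type and less RNA per cell cannot be told apart.

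Of the osteoblast markers checked, Col1a1, Col1a2, Ibsp, Sp7 and Runx2 were well expressed in all 4 libraries. Alpl and Bglap were low with vehicle. The RPKM that the authors deposited are scaled by gene length but not with TMM factors. By these RPKM, Col1a1 stood at 9442 with BMP2 and 4796 with vehicle, and 11542 with BMP2 plus GSK126 and 5937 with GSK126 alone. Sp7 stood at 140 with BMP2 and 33.2 with vehicle, and 177 with BMP2 plus GSK126 and 78.4 with GSK126 alone RPKM. Runx2 lay between 28.25 and 44.72 RPKM. Col1a2 and Ibsp were lowest with vehicle, at 4837 and 97.58 RPKM. Alpl stood at 14.75 RPKM with BMP2 and 3.919 with vehicle, and 13.98 with BMP2 plus GSK126 and 8.944 with GSK126 alone. Bglap stood at 187.2 RPKM with BMP2 and 5.766 with vehicle, and 633.6 with BMP2 plus GSK126 and 78.94 with GSK126 alone. Among markers of other cell types, the leukocyte marker Cd3e and the endothelial markers Cdh5 and Emcn had 0 read pairs in all 4. Other members of these lists were detected, among them Lyz2 with 133 to 568 read pairs, Cd14 with 120 to 187, Csf1r with 21 to 54 and Vwf with 37 to 626.

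Promoters of 3 genes that stand for the directions of change described below are printed here, since they carry letters linked to the pathway. Sequences are from RefSeq (GRCm38.p6), 250 bases before to 50 bases after the annotated start, read 5′ to 3′ on the gene's strand, and capitals mark the motif found. Smad6, an inhibitory SMAD that rose, holds the palindromic SMAD box GTCTAGAC across its start (chr9:64022010-64022309, minus strand). Dmp1, a mineralization gene that rose, holds the RUNX element AACCACA from position -165 (chr5:104202367-104202666, plus strand). Igf1, a growth factor gene that fell, holds the GC-rich element GGCGCC, known from BMP-responsive enhancers, from position -128 (chr10:87860861-87861160, plus strand). The Igf1 gene of the deposited table begins upstream of this window, at position 87859056.
Smad6: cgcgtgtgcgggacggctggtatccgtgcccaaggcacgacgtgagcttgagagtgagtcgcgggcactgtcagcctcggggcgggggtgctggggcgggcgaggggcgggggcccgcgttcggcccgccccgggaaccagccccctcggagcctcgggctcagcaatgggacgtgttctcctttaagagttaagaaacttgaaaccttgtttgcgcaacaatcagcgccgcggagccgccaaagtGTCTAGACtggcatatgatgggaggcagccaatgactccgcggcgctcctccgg
Dmp1: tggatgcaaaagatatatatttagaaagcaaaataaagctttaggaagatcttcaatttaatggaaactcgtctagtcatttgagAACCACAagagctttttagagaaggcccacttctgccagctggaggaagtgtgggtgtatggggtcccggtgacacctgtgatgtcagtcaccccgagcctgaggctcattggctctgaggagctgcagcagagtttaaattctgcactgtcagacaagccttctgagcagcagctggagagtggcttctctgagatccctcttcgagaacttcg
Igf1: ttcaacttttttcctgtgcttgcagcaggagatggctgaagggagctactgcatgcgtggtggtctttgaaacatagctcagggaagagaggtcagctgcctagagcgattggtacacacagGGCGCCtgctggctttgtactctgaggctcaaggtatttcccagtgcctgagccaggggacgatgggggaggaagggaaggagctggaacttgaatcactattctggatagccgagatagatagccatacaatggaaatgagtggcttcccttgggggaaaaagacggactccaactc
Both strands of all promoters of the same length were searched, for 8497 of the 11804 tested genes. GTCTAGAC occurred in 14 of them (0.165%), among them 1 of 545 promoters of genes that rose and 1 of 646 of genes that fell. GGCGCC occurred in 26.4% of promoters of genes that rose, 18.7% of those that fell and 22.6% of all, and in 20.8% of promoters of genes that rose at least 2-fold in both pairs and 18.8% of those that fell as much. AACCACA occurred in 2.02%, 2.94% and 3.48% of the same sets. These matches describe the letters of a window only.

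BMP2 at 50 ng/ml changed 1663 of 11804 tested genes on day 6, which is 14.1%. Of these 744 rose (6.3% of tested genes) and 919 fell (7.79%), and the median over all tested genes was -0.001 on the log2 scale. The rule requires the same sign in both pairs, which 67% of all tested genes had. All 1663 genes that passed on adjusted p had it, so the sign rule removed none. A change of at least 2-fold in both pairs was seen upward in 264 tested genes (2.24%), of which 227 were called, and downward in 373 (3.16%), of which 356 were called. A fit on the 4 libraries alone (the 4-library fit) called 715, with 253 higher and 462 lower, and 699 of these were among the 1663. With library size as the only scaling the median gene shifted by -0.221 on the log2 scale, and 435 genes were higher and 1678 lower. The count was 676 without the BMP2 library, 684 without the 10 ng/ml library and 720 without the library of 10 ng/ml plus GSK126.

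**Figure D1:**
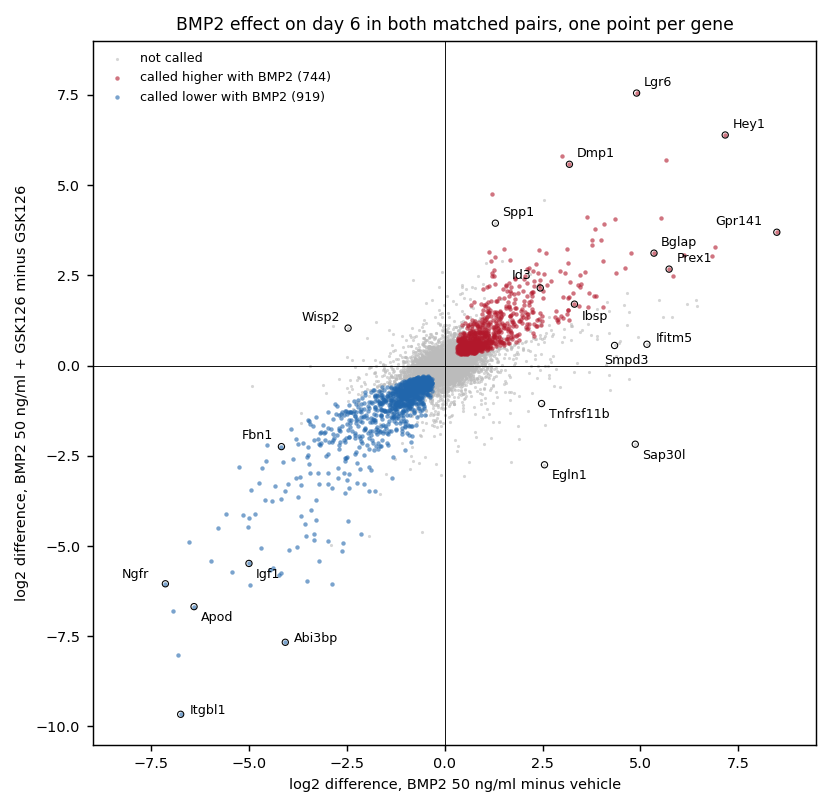
Log2 difference of BMP2 50 ng/ml minus vehicle (x axis) against BMP2 50 ng/ml plus GSK126 minus GSK126 (y axis), 1 point per tested gene, with 744 genes that rose in red and 919 that fell in blue. By the rule for a call, the red and blue points can lie only in the corners where both pairs agree in sign. Spp1, Smpd3 and Ifitm5 were not called. Tnfrsf11b, Egln1, Sap30l and Wisp2 have opposite signs in the pairs, and 1 gene lies outside the axes.

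The largest rises, ranked by the smaller of both pair differences and limited to genes averaging 5 CPM or more, were in Lgr6, Cd244, Gpr141, Cd300lb, Rnf150, Slc36a2, Dmp1, Bglap, Adam12, Bglap2, Prex1, Ptgs2, Fetub, Rab27b and Hes1. Lgr6, a receptor for the R-spondins that amplify Wnt signalling (chr1:134986353-135105276 in the deposited mm10 table), had 1.83 CPM with BMP2 and 0.0401 with vehicle, and 27.3 with BMP2 plus GSK126 and 0.124 with GSK126 alone. The library with vehicle held 2 read pairs and that with GSK126 alone 6, so the ratios are loose, at 45.7 (95% counting interval 12.2 to 386) without GSK126 and 220 (95% counting interval 101 to 601) with it. Both BMP2 libraries lay above both libraries without BMP2 (adjusted p = 0.0062). Cd244, a receptor of the SLAM family known from natural killer cells, had 33.1 CPM with BMP2 and 0.701 with vehicle, and 53.1 with BMP2 plus GSK126 and 3.12 with GSK126 alone. It rose by 4.73 ± 0.37 (adjusted p = 0.0071). Gpr141, an orphan receptor, had 525 read pairs with BMP2 and 1 with vehicle, and 1821 with BMP2 plus GSK126 and 148 with GSK126 alone. The ratio was 750 (95% counting interval 134 to 29700) without GSK126 and 13 (95% counting interval 11 to 15.5) with it, and the groups did not overlap.

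Cd300lb, another immune receptor gene, had 3.55 CPM with BMP2 against 0.24 with vehicle, and 32.5 against 2.88 in the pair with GSK126, and rose by 3.60 ± 0.19. The 13 leukocyte markers summed to 9.99 CPM with BMP2 and 10.4 with vehicle, and 13.3 with BMP2 plus GSK126 and 15.8 with GSK126 alone. Of these markers 11 were too low to test, among them 2 at 0 throughout. Most of the sum came from Lyz2, with 133 read pairs with BMP2 and 262 with vehicle, and 374 with BMP2 plus GSK126 and 568 with GSK126 alone, and Cd14, with 120 read pairs with BMP2 and 187 with vehicle, and 149 with BMP2 plus GSK126 and 133 with GSK126 alone. Csf1r had 54 read pairs with BMP2 and 26 with vehicle, and 39 with BMP2 plus GSK126 and 21 with GSK126 alone, and Cd68 had 27 read pairs with BMP2 and 24 with vehicle, and 32 with BMP2 plus GSK126 and 24 with GSK126 alone. Lyz2 was thus lower with BMP2 in both pairs, while Csf1r and Cd68 were higher in both, and the part of such cells in the rises of Cd244 and Cd300lb was not tested. Ptgs2, the inducible prostaglandin synthase COX-2, had 40.6 CPM with BMP2 and 5.29 with vehicle, and 59.1 with BMP2 plus GSK126 and 9.62 with GSK126 alone, and rose by 2.79 ± 0.15 (adjusted p = 0.0053). Adam12, a metalloprotease of the cell surface, had 194 CPM with BMP2 against 22 with vehicle, and 191 against 26.5 in the pair with GSK126, and rose by 3.01 ± 0.32. Both genes were higher in each BMP2 library than in either library without it. Of the 15 largest rises 12 passed in the 4-library fit as well, and Gpr141, Slc36a2 and Prex1 lost their calls there.

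Among the 15 largest falls were Itgbl1, Apod, Ngfr, Gfra2, Igf1, Tnnc2, Mrgprf, Itga8, F13a1, Gdf6, Abi3bp, Dock10, Aff3 and Enpp2, and all of these passed in the 4-library fit. Apod, a lipid-carrying apolipoprotein, had 0.429 CPM with BMP2 and 38.4 with vehicle, and 0.197 with BMP2 plus GSK126 and 22.4 with GSK126 alone. It fell by 6.65 ± 0.21 on the log2 scale (adjusted p = 0.0037). F13a1, the catalytic chain of the transglutaminase factor XIII, had 10.3 CPM with BMP2 and 368 with vehicle, and 13.9 with BMP2 plus GSK126 and 244 with GSK126 alone, and fell by 4.57 ± 0.47. In both genes the libraries with BMP2 lay far below those without it.

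Itgbl1, a secreted protein related to integrin beta chains, had 4 read pairs with BMP2 and 734 with vehicle, and 1 with BMP2 plus GSK126 and 1714 with GSK126 alone. In each of the genes named both libraries with BMP2 lay below both without it. Gdf6, a ligand of the BMP family, had 1.4 CPM with BMP2 and 41.2 with vehicle, and 2.17 with BMP2 plus GSK126 and 37.9 with GSK126 alone, and fell by 4.44 ± 0.34. Enpp2, which encodes autotaxin, the enzyme that makes lysophosphatidic acid, had 7.9 CPM with BMP2 against 80.9 with vehicle, and 4.86 against 139 in the pair with GSK126. Itga8, an integrin chain, fell by 4.57 ± 0.39, and Abi3bp, a matrix protein, fell by 6.33 ± 0.83.

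Of 20 tested members of the BMP-SMAD response list, 11 rose and 2 fell, or 8 and 2 in the 4-library fit, and the list's median was 1.12 against -0.001 for all tested genes. The counts of this and every later list stand beside 6.3% higher and 7.79% lower over all tested genes. Hey1, a repressor of the hairy family induced by BMP and Notch signals, had 210 read pairs with BMP2 and 1 with vehicle, and 399 with BMP2 plus GSK126 and 4 with GSK126 alone. Its ratio was 300 (95% counting interval 53.3 to 11900) without GSK126 and 106 (95% counting interval 40.9 to 390) with it. Id3, an inhibitor of basic helix-loop-helix factors, had 126 CPM with BMP2 and 23.2 with vehicle, and 118 with BMP2 plus GSK126 and 26.5 with GSK126 alone, and rose by 2.31 ± 0.26 (adjusted p = 0.01). In both genes the groups did not overlap. Id1 had 3.89 CPM with BMP2 against 1.2 with vehicle, and 6.26 against 0.807 in the pair with GSK126, and rose by 2.27 ± 0.41. Id2 rose by 1.78 ± 0.39 and lost its call in the 4-library fit. Id4 moved the other way, with 1.75 CPM with BMP2 against 20.1 with vehicle, and 1.77 against 9.95 in the pair with GSK126, and fell by 3.02 ± 0.30 on the log2 scale.

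Feedback inhibitors inside the cell rose with these targets. Smad6 had 41.5 CPM with BMP2 and 14 with vehicle, and 57 with BMP2 plus GSK126 and 12.3 with GSK126 alone, and rose by 1.87 ± 0.21 (adjusted p = 0.01). Smad7 rose by 1.08 ± 0.14 and Smad9, a SMAD that the receptors phosphorylate, rose by 1.97 ± 0.20. Atoh8, a transcription factor known as a BMP target, rose by 2.09 ± 0.22, and Msx2, a homeobox target, rose by 1.16 ± 0.17 with a call lost in the 4-library fit. Bambi, a decoy receptor, rose by 2.06 ± 0.39, and its call was lost there too. Among secreted antagonists Grem1 had 7.9 CPM with BMP2 against 63 with vehicle, and 19.3 against 64.3 in the pair with GSK126, and fell by 2.30 ± 0.37. Noggin (Nog) had 0.572 CPM with BMP2 against 3.34 with vehicle, and 5.32 against 4.49 in the pair with GSK126, and did not pass (-0.80 ± 0.73).

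**Figure D2:**
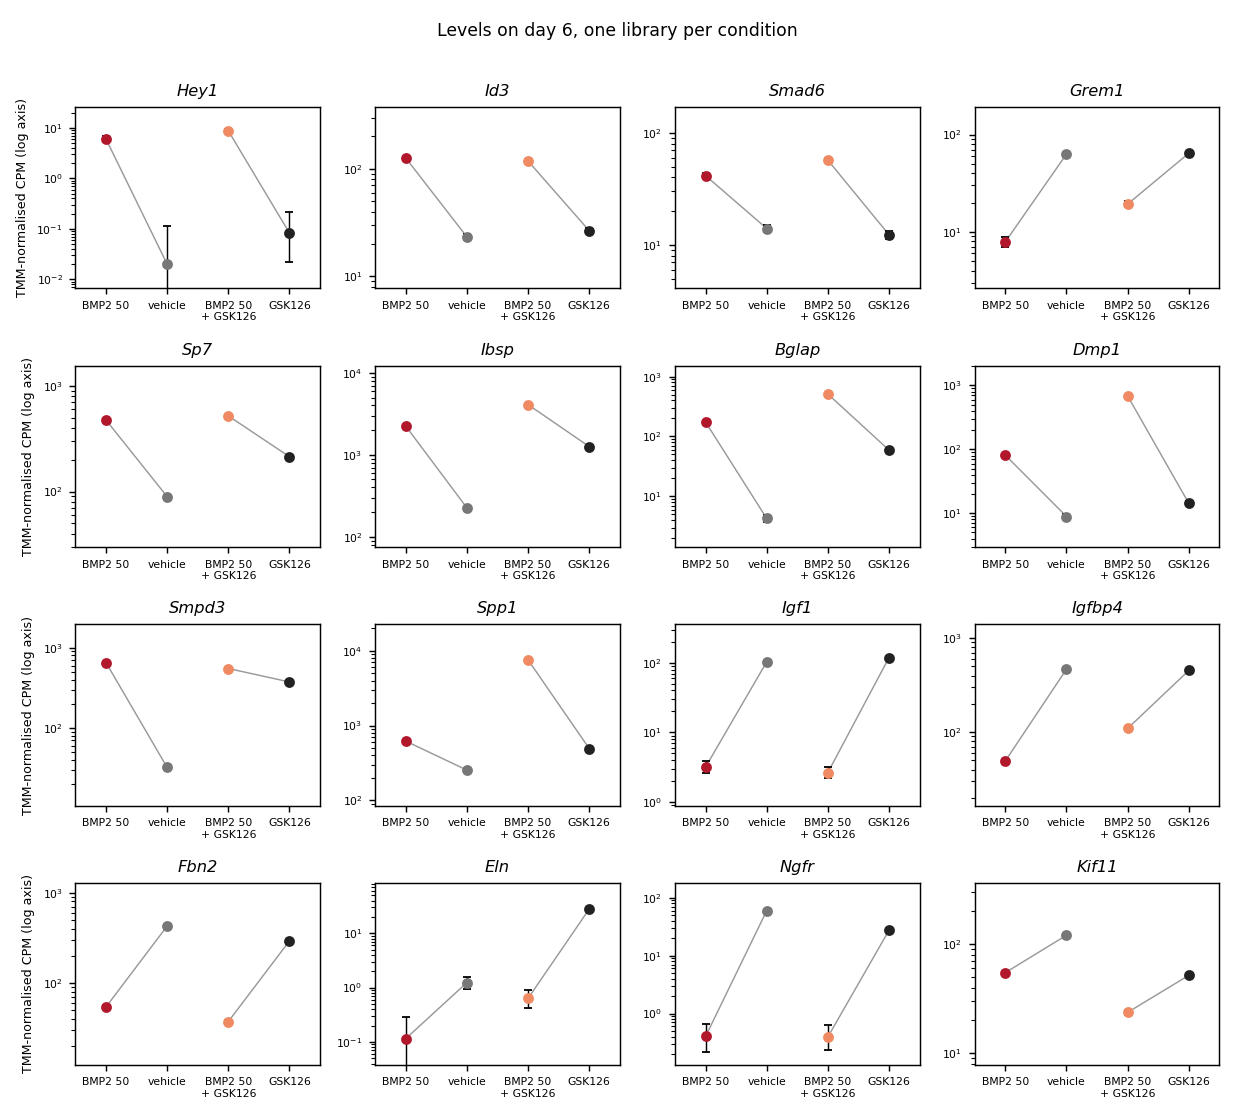
TMM-normalised CPM (log axis) of 16 genes in the 4 libraries of day 6, with lines joining the libraries of a pair and bars giving 95% counting intervals where wider than the point. Libraries with BMP2 lie above their partners for Hey1, Id3, Smad6, Sp7, Ibsp, Bglap, Dmp1, Smpd3 and Spp1 and below them for Grem1, Igf1, Igfbp4, Fbn2, Eln, Ngfr and Kif11; Smpd3 and Spp1 did not pass the test.

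Transcription factors of the osteoblast lineage rose in 5 of 15 cases and fell in 1, with a median of 0.83. Sp7, the factor without which mouse osteoblasts do not form, had 477 CPM with BMP2 and 89.5 with vehicle, and 522 with BMP2 plus GSK126 and 214 with GSK126 alone, and rose by 1.85 ± 0.28 (adjusted p = 0.02). Both libraries with BMP2 stood above both others. Among the Dlx homeobox genes, Dlx2 rose by 1.90 ± 0.20, Dlx5 rose by 1.02 ± 0.18 and Dlx1 rose by 0.94 ± 0.12, and Dlx5 lost its call in the 4-library fit. Runx2 had 458 CPM with BMP2 against 231 with vehicle, and 400.4 against 309.7 in the pair with GSK126, and did not pass (0.68 ± 0.17, adjusted p = 0.058). Mef2c, a MADS-box factor, had 219 CPM with BMP2 against 32 with vehicle, and 235 against 128 in the pair with GSK126, and did not pass either (1.83 ± 0.45). Zfp521, a repressor of RUNX2 activity, fell by 1.13 ± 0.18.

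Bone matrix and mineralization genes rose in 7 of 18 tested cases and fell in 2, or 4 and 1 in the 4-library fit, with a median of 2.26. Bglap, which encodes osteocalcin, had 174 CPM with BMP2 and 4.25 with vehicle, and 511 with BMP2 plus GSK126 and 59 with GSK126 alone, and rose by 4.24 ± 0.58 (adjusted p = 0.016). Bglap2 rose by 3.83 ± 0.75, but these genes are near-identical copies between which reads could be split, so their single values are uncertain. Ibsp, bone sialoprotein, had 2239 CPM with BMP2 and 225 with vehicle, and 4095 with BMP2 plus GSK126 and 1259 with GSK126 alone, and rose by 2.52 ± 0.41. Tnn, the matrix protein tenascin-W, had 802 CPM with BMP2 against 57.3 with vehicle, and 439 against 115 in the pair with GSK126, and rose by 2.82 ± 0.48. In Bglap, Ibsp and Tnn both libraries with BMP2 were above both without it.

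Sparc, osteonectin, had 16089 CPM with BMP2 against 4710 with vehicle, and 18900 against 8476 in the pair with GSK126, and rose by 1.47 ± 0.24. Bmp1, the protease that removes the C-terminal propeptide of procollagen, rose by 1.17 ± 0.14, and Enpp1, which makes the mineral inhibitor pyrophosphate, rose by 2.40 ± 0.41. Ibsp, Sparc and Enpp1 lost their calls in the 4-library fit. The falls were in Mgp and Slc20a2. Mgp, matrix Gla protein, an inhibitor of calcification, had 126 CPM with BMP2 against 269 with vehicle, and 59.8 against 198 in the pair with GSK126, and fell by 1.41 ± 0.17. Slc20a2, a phosphate transporter, fell by 0.53 ± 0.12, a call also lost in the 4-library fit.

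Several mineralization genes were higher in both pairs without passing. Alpl, tissue-nonspecific alkaline phosphatase, had 55.2 CPM with BMP2 and 11.6 with vehicle, and 45.5 with BMP2 plus GSK126 and 26.9 with GSK126 alone (1.46 ± 0.37, adjusted p = 0.064). Phospho1, a phosphatase of matrix vesicles, had 136 CPM with BMP2 against 9.17 with vehicle, and 116 against 70 in the pair with GSK126. Smpd3, a sphingomyelinase needed for mineralization in mice, had 652 CPM with BMP2 against 32.2 with vehicle, and 550.5 against 374 in the pair with GSK126. In these genes the library with GSK126 alone was above the vehicle library, and the pair difference was smaller with GSK126. Ifitm5, an osteoblast membrane protein, had the same order, with 91.4 CPM with BMP2 against 2.52 with vehicle, and 66.3 against 44 in the pair with GSK126.

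Spp1, osteopontin, had the larger difference in the pair with GSK126, with 619.8 CPM with BMP2 and 253 with vehicle, and 7572 with BMP2 plus GSK126 and 492 with GSK126 alone (2.52 ± 0.68, adjusted p = 0.073). Phex, an endopeptidase-like protein of osteocytes, had 17.5 CPM with BMP2 against 3.02 with vehicle, and 93.2 against 3.87 in the pair with GSK126, and passed in the 4-library fit but not with 6 libraries (adjusted p = 0.057). Whether the BMP2 effect differs between the pairs was not tested, since each pair is 1 library against 1.

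Genes of the osteocyte, the cell that an osteoblast becomes within bone matrix, rose in 3 of 8 tested cases and fell in 1, or 2 and 0 in the 4-library fit. Dmp1, a phosphoprotein of mineralizing matrix, had 81 CPM with BMP2 and 8.89 with vehicle, and 683 with BMP2 plus GSK126 and 14.3 with GSK126 alone, and rose by 4.27 ± 0.68 (adjusted p = 0.023). The kinase gene Fam20c rose by 1.55 ± 0.27 and Capg, an actin-capping protein, rose by 0.76 ± 0.14, while Cd44, a hyaluronan receptor, fell by 0.74 ± 0.10. Fam20c, Capg and Cd44 lost their calls in the 4-library fit. Sost, which encodes the Wnt inhibitor sclerostin of mature osteocytes, had 0 read pairs with BMP2 and 2 with vehicle, and 104 with BMP2 plus GSK126 and 0 with GSK126 alone, and was too low to test. It was thus detected mainly in 1 of the 4 libraries.

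Collagens moved in both directions, 4 higher and 9 lower of 20 tested, or 1 and 4 in the 4-library fit, with a median of -0.27. Col1a1, the main chain of bone collagen, had 66013 CPM with BMP2 and 26590 with vehicle, and 70073 with BMP2 plus GSK126 and 33388 with GSK126 alone, and did not pass (1.19 ± 0.30, adjusted p = 0.061). Both type IV chains of the list, which form basement membranes, fell: Col4a2 had 25.9 CPM with BMP2 against 189 with vehicle, and 54.1 against 151 in the pair with GSK126, and fell by 2.17 ± 0.34, and Col4a1 fell by 2.48 ± 0.48. The network collagen gene Col8a1 had 182 CPM with BMP2 against 747 with vehicle, and 203 against 688 in the pair with GSK126, and fell by 1.90 ± 0.11 (adjusted p = 0.0053). These falls were seen without overlap between the groups in Col4a2 and Col8a1. Col16a1 fell by 1.80 ± 0.11, Col12a1 fell by 1.45 ± 0.20 and Col6a3, a chain of beaded filaments, fell by 1.11 ± 0.21. Among the rises, Col22a1 had 12.8 CPM with BMP2 against 1.14 with vehicle, and 38.7 against 8.5 in the pair with GSK126, and rose by 2.87 ± 0.45, and Col15a1, a collagen of the basement membrane zone, rose by 0.62 ± 0.08. Col4a1, Col12a1, Col6a3 and Col15a1 lost their calls in the 4-library fit.

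Enzymes that modify or crosslink collagen rose in 2 of 19 cases and fell in 3, or 1 and 1 in the 4-library fit. All tested genes had 6.3% higher and 7.79% lower. Loxl4 rose by 1.04 ± 0.20 and Loxl1 fell by 1.19 ± 0.19, both relatives of lysyl oxidase. Lox, lysyl oxidase itself, had 1922 CPM with BMP2 against 318 with vehicle, and 1203 against 647 in the pair with GSK126, and did not pass (1.75 ± 0.41, adjusted p = 0.054).

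Elastic fibre genes fell in 7 of 12 tested cases and rose in 2, or 1 and 4 in the 4-library fit (higher first), with a median of -0.52. Fbn2, fibrillin-2, had 53.9 CPM with BMP2 and 427 with vehicle, and 37.1 with BMP2 plus GSK126 and 292 with GSK126 alone, and fell by 2.98 ± 0.17 (adjusted p = 0.0053). Fbn1, fibrillin-1, had 38.6 CPM with BMP2 against 699 with vehicle, and 60.9 against 289 in the pair with GSK126, and fell by 3.12 ± 0.53. Eln, elastin itself, had 4 read pairs with BMP2 and 62 with vehicle, and 29 with BMP2 plus GSK126 and 1354 with GSK126 alone. In these genes both BMP2 libraries were below both libraries without it. Mfap4, a microfibril protein, fell by 5.38 ± 0.57 and Fbln5, a fibulin needed for elastic fibres in mice, fell by 1.27 ± 0.22. Ltbp2, a latent TGF-beta binding protein relative, rose by 2.67 ± 0.27. Fbln5 lost its call in the 4-library fit.

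The small leucine-rich proteoglycans, which bind collagen fibrils and growth factors, fell in 5 of 10 tested cases and rose in 1. The gene that rose was decorin (Dcn), with 1843 CPM with BMP2 and 395 with vehicle, and 1084 with BMP2 plus GSK126 and 262 with GSK126 alone, and it rose by 2.14 ± 0.17 (adjusted p = 0.0072). Lumican (Lum) had 165 CPM with BMP2 against 613 with vehicle, and 71 against 526 in the pair with GSK126, and fell by 2.39 ± 0.25. Asporin (Aspn) fell by 2.59 ± 0.42, podocan (Podn) fell by 2.75 ± 0.17 and osteoglycin (Ogn) fell by 1.58 ± 0.16. Matrix proteases and inhibitors rose in 3 of 15 cases and fell in 2, where all tested genes had 6.3% and 7.79%. Timp1, an inhibitor of metalloproteinases, had 230.5 CPM with BMP2 against 66.2 with vehicle, and 408 against 135 in the pair with GSK126, and rose by 1.70 ± 0.10. The gelatinase gene Mmp9 had 0.572 CPM with BMP2 against 2.66 with vehicle, and 0.263 against 2.05 in the pair with GSK126, and fell by 2.59 ± 0.35.

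The insulin-like growth factor axis fell in 7 of 11 tested cases and rose in 0, or 0 and 6 in the 4-library fit (higher first), with a median of -1.40. Igf1, the growth factor, had 3.18 CPM with BMP2 and 103 with vehicle, and 2.65 with BMP2 plus GSK126 and 119 with GSK126 alone, and fell by 5.27 ± 0.24 (adjusted p = 0.0053). Its relative Igf2 had 1.4 CPM with BMP2 against 4.25 with vehicle, and 4.23 against 13.2 in the pair with GSK126, and fell by 1.61 ± 0.17. The binding protein gene Igfbp4 had 49.4 CPM with BMP2 against 468 with vehicle, and 109.6 against 453 in the pair with GSK126, and fell by 2.62 ± 0.32. Igf1 and Igfbp4 showed no overlap between the groups, whereas Igf2 with BMP2 plus GSK126 was close to its vehicle level. Igfbp2 fell by 3.10 ± 0.32. The proteases Pappa and Pappa2, which cleave IGF binding proteins, fell as well, and Pappa2 fell by 1.40 ± 0.11. The receptors Igf1r (0.28 ± 0.18) and Igf2r (0.15 ± 0.10) did not pass. Igfbp5 had 90.5 CPM with BMP2 against 86.9 with vehicle, and 166 against 43.6 in the pair with GSK126, and did not pass.

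In the TGF-beta and activin axis 4 of 14 genes rose and 4 fell. Among ligands Tgfb1 had 151 CPM with BMP2 and 38.8 with vehicle, and 176 with BMP2 plus GSK126 and 72.1 with GSK126 alone, and rose by 1.63 ± 0.18, while Tgfb2 fell by 0.79 ± 0.15 and Tgfb3 fell by 0.62 ± 0.10. The receptor genes Tgfbr2 and Tgfbr3 fell: Tgfbr2 fell by 1.54 ± 0.20 and Tgfbr3 fell by 1.25 ± 0.17. Tgfbr1 did not pass (0.12 ± 0.09). Skil, a repressor of SMAD activity that TGF-beta induces, had 43.6 CPM with BMP2 against 10.8 with vehicle, and 73.4 against 22.9 in the pair with GSK126, and rose by 1.84 ± 0.11. Tgfb2 and Tgfb3 lost their calls in the 4-library fit.

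Among Wnt antagonists and feedback genes 2 of 16 rose and 6 fell, or 2 and 3 in the 4-library fit. Sfrp2, a secreted frizzled-related protein, had 40.1 CPM with BMP2 and 197 with vehicle, and 30 with BMP2 plus GSK126 and 119.8 with GSK126 alone, and fell by 2.15 ± 0.12. Dkk2, which binds Wnt co-receptors, had 0.258 CPM with BMP2 against 9.09 with vehicle, and 0.241 against 5.81 in the pair with GSK126, and fell by 4.86 ± 0.55. Rspo2, a ligand of the Lgr receptors, fell by 1.34 ± 0.16. The rises were in Lgr6 and in its relative Lgr4, which rose by 0.68 ± 0.14. Axin2, a feedback target of canonical Wnt signalling, had 15.9 CPM with BMP2 against 26.5 with vehicle, and 6.33 against 20 in the pair with GSK126, and fell by 1.21 ± 0.24. Lgr4 and Axin2 lost their calls in the 4-library fit. Wif1, a secreted Wnt inhibitor, had 185 CPM with BMP2 against 3.83 with vehicle, and 104 against 40.8 in the pair with GSK126, and did not pass (3.06 ± 1.13).

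Notch pathway genes rose in 3 of 9 tested cases and fell in 2, or 3 and 0 in the 4-library fit. Hes1, a repressor downstream of Notch, had 11.7 CPM with BMP2 and 2.02 with vehicle, and 16.8 with BMP2 plus GSK126 and 2.88 with GSK126 alone, and rose by 2.54 ± 0.24. The receptor gene Notch1 fell by 1.26 ± 0.27, with a call lost in the 4-library fit, and Lfng, which modifies Notch receptors, rose by 0.70 ± 0.10. In the FGF axis 2 of 13 rose and 2 fell, or 1 and 3 in the 4-library fit. All tested genes had 6.3% higher and 7.79% lower. The receptor gene Fgfr3 had 90 CPM with BMP2 against 27.3 with vehicle, and 82 against 35.5 in the pair with GSK126, and rose by 1.48 ± 0.20. The ligand gene Fgf18 had 0.486 CPM with BMP2 against 5.17 with vehicle, and 0.197 against 5.52 in the pair with GSK126, and fell by 4.12 ± 0.47.

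Receptors for neurotrophins and GDNF-family ligands held some of the deepest falls. Ngfr, the low-affinity nerve growth factor receptor, had 0.401 CPM with BMP2 and 59.8 with vehicle, and 0.394 with BMP2 plus GSK126 and 27.5 with GSK126 alone, and fell by 6.69 ± 0.45 (adjusted p = 0.0061). Gfra2, the neurturin receptor, had 1.46 CPM with BMP2 against 93.7 with vehicle, and 1.27 against 55.3 in the pair with GSK126, and fell by 5.71 ± 0.40. Of 6 tested members of that list these 2 fell and Bdnf, a neurotrophin, rose by 1.11 ± 0.17, with a call lost in the 4-library fit. Another 9 members were too low to test. Of 7 tested cytokines and enzymes that act on osteoclasts 2 rose, Ptgs2 and Lif, and Lif rose by 0.90 ± 0.13 with a call lost in the 4-library fit. Bone hormone receptors and their targets fell in 2 of 11 cases and rose in 0. Crabp2, a retinoic acid binding protein, had 12.5 CPM with BMP2 against 61.9 with vehicle, and 10.3 against 38 in the pair with GSK126, and fell by 2.08 ± 0.18.

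Markers of mesenchymal progenitors, most of them surface molecules, fell in 5 of 12 tested cases and rose in 0, or 0 and 3 in the 4-library fit (higher first). Cd34 had 4.84 CPM with BMP2 and 61.7 with vehicle, and 2.41 with BMP2 plus GSK126 and 24.2 with GSK126 alone, and fell by 3.50 ± 0.12 (adjusted p = 0.0037). Vcam1, an adhesion molecule, had 17.4 CPM with BMP2 against 90.2 with vehicle, and 13.2 against 46.6 in the pair with GSK126, and fell by 2.10 ± 0.15. Nt5e, which encodes CD73, fell by 1.84 ± 0.20. In these 3 genes, picked from the falls, both BMP2 libraries lay below both others. Of the 12 tested members 6 were lower in both pairs and 1, Ly6a, was higher in both. Ly6a had 274 read pairs with BMP2 and 241 with vehicle, and 330 with BMP2 plus GSK126 and 151 with GSK126 alone, and did not pass. The 13 markers of the list summed to 1018 CPM with BMP2 and 1598 with vehicle, and 932 with BMP2 plus GSK126 and 1120 with GSK126 alone. The largest single part of the sum was Prrx1, a transcription factor and not a surface marker. It had 17098 read pairs with BMP2 and 33662 with vehicle, and 19973 with BMP2 plus GSK126 and 24297 with GSK126 alone.

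Contractile genes of smooth muscle fell in 4 of 9 cases and rose in 1. Acta2, alpha smooth muscle actin, had 500 CPM with BMP2 against 1184 with vehicle, and 171 against 577 in the pair with GSK126, and fell by 1.5 ± 0.16. Lmod1, an actin nucleator, fell by 1.54 ± 0.09 and Tpm2, a tropomyosin, fell by 1.28 ± 0.10, while Des, desmin, rose by 1.27 ± 0.13. The list summed to 1032 CPM with BMP2 and 1940 with vehicle, and 491 with BMP2 plus GSK126 and 1141 with GSK126 alone, so the sum was lower with BMP2 in both pairs.

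Of 8 tested cartilage genes 1 rose and 1 fell, where all tested genes had 6.3% and 7.79%. Col2a1, the collagen of cartilage, had 346 CPM with BMP2 and 60.2 with vehicle, and 1111 with BMP2 plus GSK126 and 264 with GSK126 alone, and rose by 2.32 ± 0.24, while Sox5, a chondrocyte transcription factor, fell by 1.20 ± 0.13. Sox9 did not pass (0.21 ± 0.23), and Acan, the cartilage proteoglycan aggrecan, had 2 read pairs with BMP2 plus GSK126 and 0 in the other 3 libraries. Of 14 adipocyte genes 10 were too low to test. Pparg, the master factor of fat cells, had 7 read pairs with BMP2 and 9 with vehicle, and 32 with BMP2 plus GSK126 and 9 with GSK126 alone. Zfp423, a regulator of fat cell commitment, fell by 1.72 ± 0.10, and Cebpb rose by 0.67 ± 0.10 with a call lost in the 4-library fit. Vwf, von Willebrand factor, an endothelial gene, had 3.98 CPM with BMP2 against 0.741 with vehicle, and 13.7 against 2.32 in the pair with GSK126, and rose by 2.50 ± 0.15, whereas the other 9 endothelial markers were too low to test.

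Of 25 proliferation genes 15 fell and 0 rose, and their median was -0.63. Kif11, a mitotic kinesin, had 54.7 CPM with BMP2 and 120.2 with vehicle, and 23.7 with BMP2 plus GSK126 and 51.7 with GSK126 alone, and fell by 1.13 ± 0.08 (adjusted p = 0.0064). Aurkb, a kinase of chromosome segregation, fell by 1.27 ± 0.10, the topoisomerase gene Top2a fell by 1.10 ± 0.10 and Mki67 fell by 1.03 ± 0.09. In these mitotic genes both libraries with GSK126 were below their counterparts without it, and BMP2 was lower within each pair. Of the genes of the replication helicase, Mcm5 fell by 0.59 ± 0.12 and Mcm6 fell by 0.61 ± 0.11, and both lost their calls in the 4-library fit. Mcm2 (-0.41 ± 0.12), Mcm3 (-0.39 ± 0.13), Mcm4 (-0.36 ± 0.11), Mcm7 (-0.22 ± 0.14) and the clamp gene Pcna (-0.12 ± 0.10) did not pass. Cdkn2c, an inhibitor of G1 kinases, fell by 1.63 ± 0.22, and Cdkn1a, which encodes p21, did not pass (0.54 ± 0.20).

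In cholesterol synthesis 7 of 22 genes fell and 0 rose, and the median was -0.87. Higher and lower calls numbered 0 and 3 in the 4-library fit and 0 and 20 with library size alone. In the pair without GSK126 20 of 22 members were below 1-fold, with a median fold of 0.784, and in the pair with GSK126 all 22 were, with a median fold of 0.424. Lss, lanosterol synthase, had 42.9 CPM with BMP2 against 72.4 with vehicle, and 24.5 against 49.5 in the pair with GSK126, and fell by 0.89 ± 0.12, and Mvk, mevalonate kinase, fell by 1.01 ± 0.13.

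Glycolysis genes fell in 1 of 16 cases, a share near the 7.79% of all tested genes. The 1 gene was Pfkp, a phosphofructokinase, which fell by 0.59 ± 0.13 and lost its call in the 4-library fit. In the pair with GSK126 all 16 members were below 1-fold, from 0.336 to 0.82. In the pair without it 8 were below and 8 above, with a median fold of 1.0. Pgk1, phosphoglycerate kinase, had 295 CPM with BMP2 against 319 with vehicle, and 103 against 298 in the pair with GSK126, so that only the library with BMP2 plus GSK126 stood apart.

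**Figure D3:**
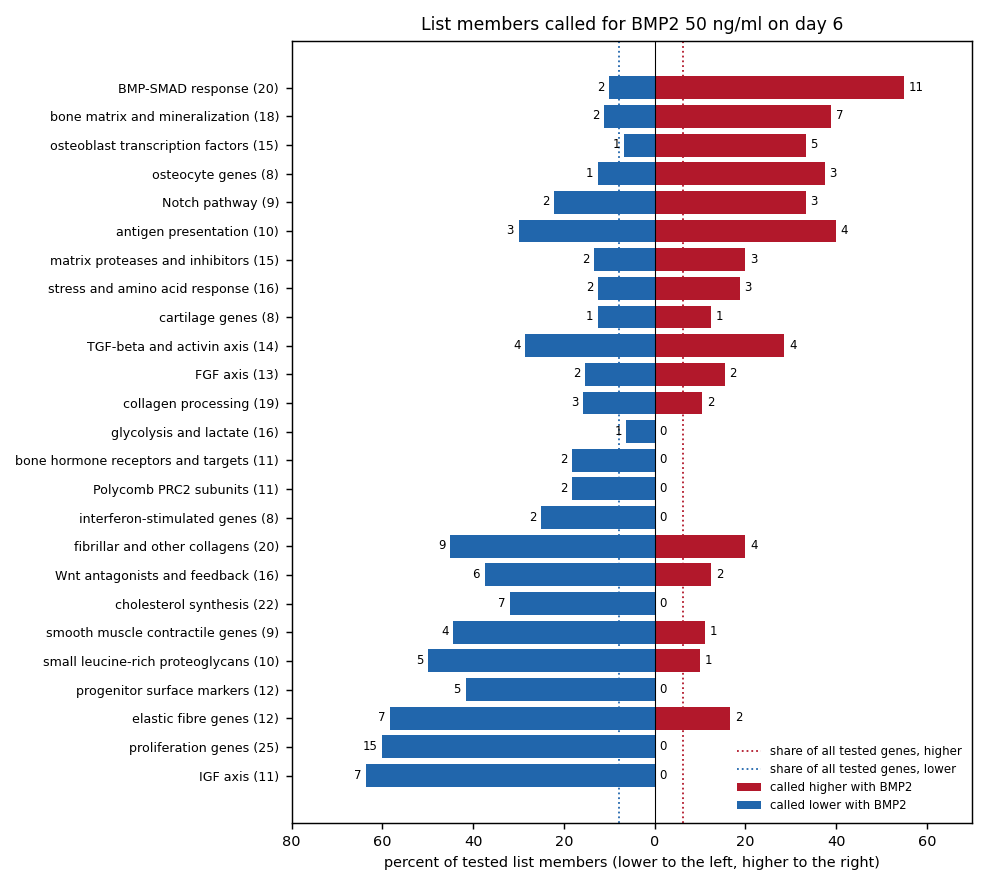
Percent of tested members of each list that rose (red, right) or fell (blue, left) with BMP2, for lists with at least 8 tested members, with the number of genes at each bar and the number tested in brackets. Dotted lines give the share of all tested genes, 6.3% higher and 7.79% lower. The BMP-SMAD list has the longest bar to the right (11 of 20), and the IGF axis (7 of 11) and proliferation genes (15 of 25) the longest to the left.

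Immune genes split. Of 10 tested antigen presentation genes 4 rose and 3 fell, or 4 and 5 with library size alone. B2m, the light chain of class I molecules, had 373 CPM with BMP2 and 205 with vehicle, and 499.7 with BMP2 plus GSK126 and 246 with GSK126 alone, and rose by 0.94 ± 0.14. H2-D1, a class I heavy chain, rose by 0.93 ± 0.14 and Nlrc5, an activator of class I genes, rose by 1.99 ± 0.29. The immunoproteasome genes Psmb8 and Psmb9 fell: Psmb8 fell by 1.45 ± 0.23 and Psmb9 fell by 1.87 ± 0.23. Interferon-stimulated genes fell in 2 of 8 tested cases and rose in 0, and Bst2, tetherin, fell by 2.13 ± 0.20. Of 5 tested complement and chemokine genes 1 rose and 1 fell, and C1s, a protease of the classical pathway, fell by 1.17 ± 0.15. In the stress and amino acid response list 3 of 16 rose and 2 fell, or 2 and 3 with library size alone. Ddit3, which encodes CHOP, rose by 0.77 ± 0.09, and Ddit4, an inhibitor of mTORC1, fell by 1.09 ± 0.16.

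Imprinted growth regulators fell in 3 of 5 tested cases and rose in 0, with a median of -1.62. Mest had 65.7 CPM with BMP2 and 381 with vehicle, and 32.3 with BMP2 plus GSK126 and 191 with GSK126 alone, and fell by 2.55 ± 0.14 (adjusted p = 0.0053). H19, a noncoding RNA, had 5 read pairs with BMP2 and 149 with vehicle, and 13 with BMP2 plus GSK126 and 793 with GSK126 alone, and fell by 5.31 ± 0.39. Igf2, described above, is in both lists. Subunits of PRC2, the complex that GSK126 targets, fell in 2 of 11 cases and rose in 0. All tested genes had 7.79% lower and 6.3% higher. The genes were Rbbp7, a histone-binding subunit, which fell by 0.76 ± 0.08, and Phf19, an accessory subunit, which fell by 1.79 ± 0.26. Ezh2, the catalytic subunit, had 30.1 CPM with BMP2 against 43.2 with vehicle, and 28.5 against 32.6 in the pair with GSK126, and did not pass (-0.36 ± 0.11, adjusted p = 0.09).

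The dose was tested as 50 against 10 ng/ml on day 6 over both GSK126 levels. Of 11804 genes 6 passed in edgeR's quasi-likelihood test (0.0508%), with 1936 at an unadjusted p under 0.05. Among them were Aff3, Apod, Cd34, Lrrtm2 and Sod3, which were lower at 50 ng/ml; Lrrtm2 and Sod3 were named after their values were seen. DESeq2 called 779 and limma-voom 0. The count was 470 without the vehicle library, 427 without the library of GSK126 alone, 21 without that of BMP2 plus GSK126, and 0 without any 1 of the other 3. Over 0, 10 and 50 ng/ml Cd34 had 61.7, 26.3 and 4.84 CPM without GSK126 and 24.2, 10.7 and 2.41 with it. Sod3, extracellular superoxide dismutase, had 122, 77.8 and 27.2 CPM without GSK126 and 110, 69.2 and 27.3 with it. In Cd34 and Sod3 each step up in dose went with a lower level in both series.

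Other genes were placed differently by the 10 ng/ml libraries. Enpp2 had 80.9, 93.2 and 7.9 CPM without GSK126 and 139, 28.6 and 4.86 with it, so that its level at 10 ng/ml was near that of vehicle only without GSK126. Id3 had 23.2, 30.3 and 126 CPM without GSK126 and 26.5, 57.3 and 118 with it. Ngfr was already low at 10 ng/ml, with 59.8, 0.925 and 0.401 CPM without GSK126 and 27.5, 1.2 and 0.394 with it. For these 3 genes the difference between 50 and 10 ng/ml did not pass.

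**Figure D4:**
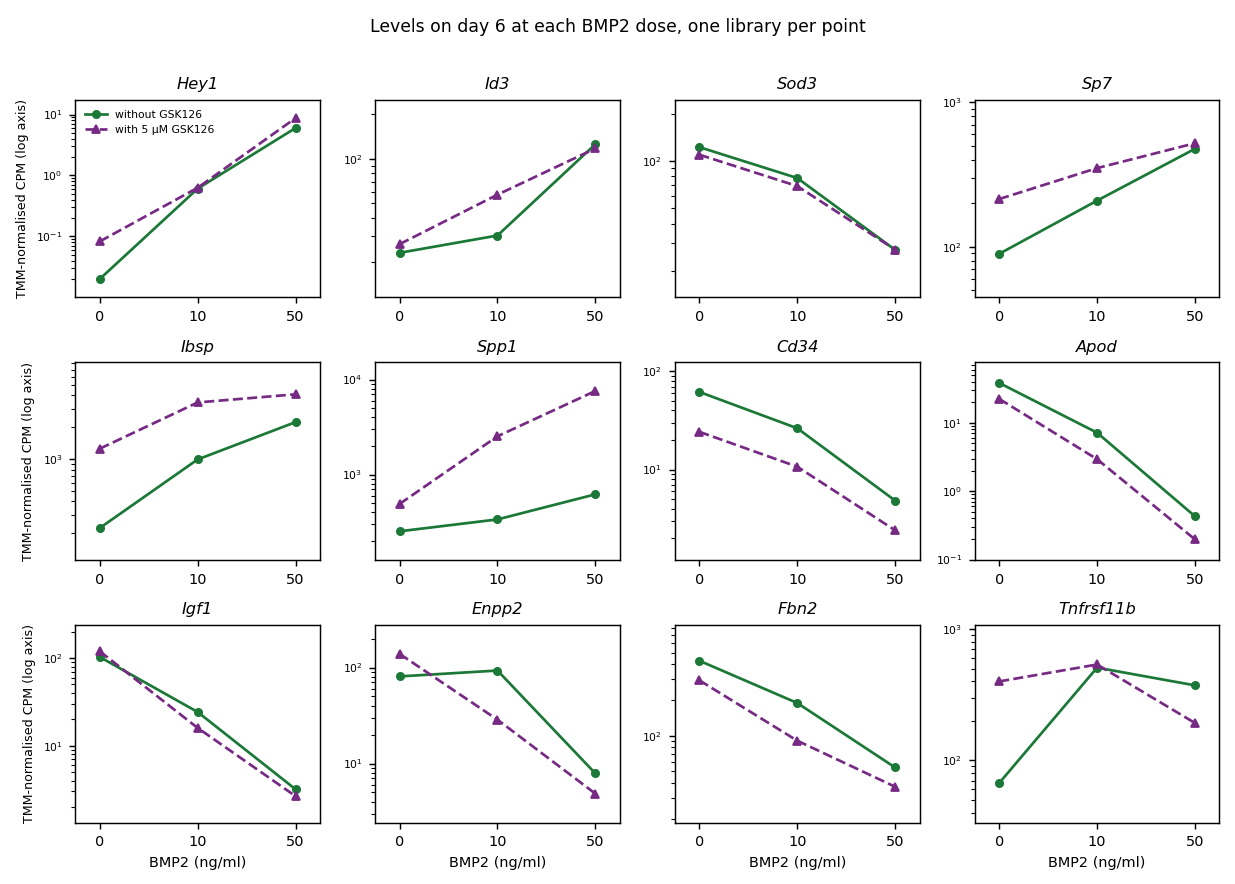
TMM-normalised CPM (log axis) of 12 genes on day 6 at 0, 10 and 50 ng/ml BMP2, 1 library per point, with solid green lines without GSK126 and dashed purple lines with it. Sod3, Cd34 and Apod passed the test of 50 against 10 ng/ml, and Tnfrsf11b at 50 ng/ml lies above its level at 0 without GSK126 and below it with GSK126.

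The BMP2 effect at 50 ng/ml differed between day 6 and day 1 for 1504 of 12056 genes (12.5%) in a fit of all 12 libraries, 668 more positive on day 6 (5.54%) and 836 more negative (6.93%). The count was 462 without the 10 ng/ml libraries, and 321 to 2726 when any 1 library was left out. The 15 largest rises and 15 largest falls were chosen for their size on day 6, which favours passing this test. Of them 10 and 12 passed. F13a1 stood at -4.57 on day 6 and 1.78 on day 1, and Igf1 at -5.27 on day 6 and -1.08 on day 1 on the log2 scale. In the BMP pathway Id3 stood at 2.31 on day 6 and 0.54 on day 1, a difference of 1.77 ± 0.29 (adjusted p = 0.012), and Id1 differed by 1.55 ± 0.38. For Smad6 the difference of 0.58 ± 0.25 did not pass (adjusted p = 0.19).

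Among osteoblast genes Dmp1 differed by 3.13 ± 0.75 and Enpp1 by 2.44 ± 0.53. Sp7 (-0.09 ± 0.32), Ibsp (-0.30 ± 0.47) and Runx2 (0.45 ± 0.18) did not pass this test. Col1a1 differed by 0.92 ± 0.17 (adjusted p = 0.017), and Acta2 by -1.25 ± 0.17.

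**Figure D5:**
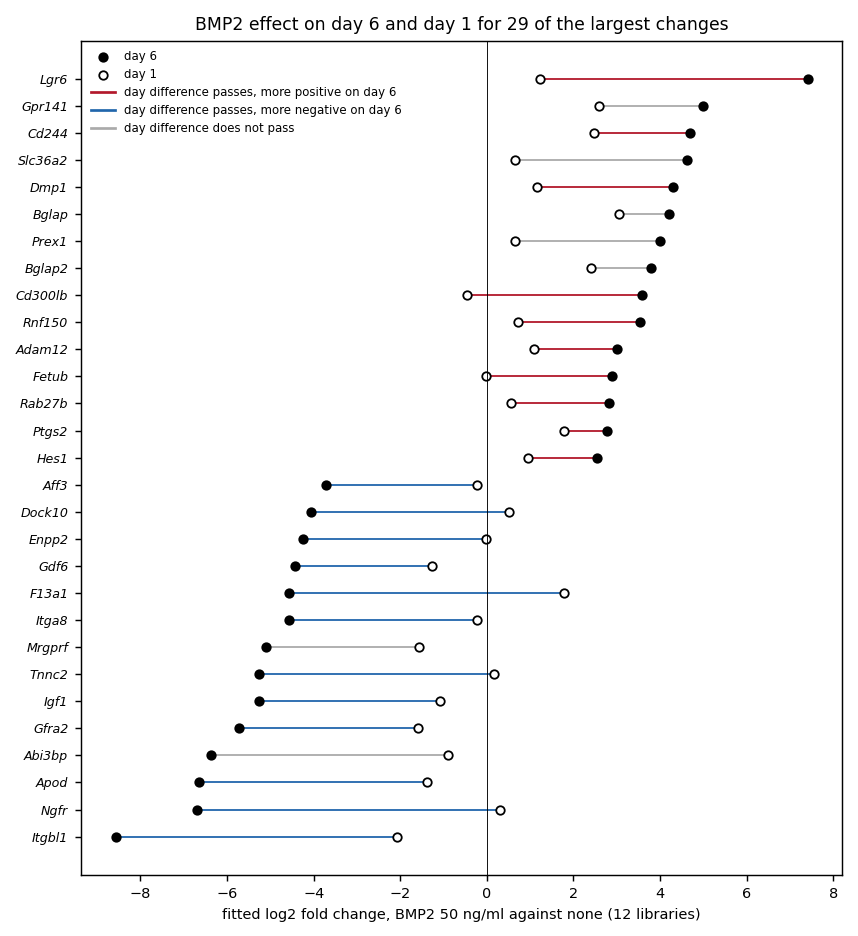
Fitted log2 fold change of BMP2 at 50 ng/ml against none (x axis) on day 6 (filled) and day 1 (open) for the 15 largest rises and 14 of the 15 largest falls of day 6, from the fit of 12 libraries. Coloured lines mark genes whose difference between days passed, 10 of the rises and 12 of the falls; fitted values of genes with few reads, such as Lgr6 and Itgbl1, depend on the prior count.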

How the data were processed

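mRNA libraries of 12 conditions were sequenced, and the authors deposited 1 table of read counts per gene with RPKM and a gene length beside them (mm10; TopHat2 2.0.6 and HTSeq, with bcl2fastq, per the submitters' processing notes). Of its 23358 rows, 69 share a name with another row. The strand setting of the counting is not given in the sources used here. Counts as deposited were tested with edgeR 4.0.16 (R 4.3.3), TMM scaling, quasi-likelihood F tests, two-sided, with Benjamini-Hochberg adjustment over all genes that reached 1 CPM in 2 or more of the libraries fitted. The model held GSK126, 10 ng/ml and 50 ng/ml terms. Pair differences are log2 of CPM with a prior count of 2. The deposited RPKM served only for the levels of the osteoblast markers. They are not scaled with TMM factors, so their ratios between libraries differ from those of CPM, and they were not tested. All 195176 counts above 0 were even. Depth was 80015906 to 94783654 counts in the 4 libraries, where 3 read pairs, the limit that a count of 0 allows, equal 0.0633 to 0.075 CPM; intervals and limits cover counting error only. On simulated data of 11688 genes for the BMP2 comparison, 85.7% of genes changed by 1 on the log2 scale and 2% of those changed by 0.5 were recovered, with 14 unchanged genes called. The simulated counts were independent and held no effect of GSK126 or of 10 ng/ml. They also held no BMP2 effect that differed between pairs, so these rates may not hold for the real libraries.

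Genes named were up to 15 per direction by the smaller pair difference, with a mean of at least 5 CPM, up to 6 called members of each of 33 lists, and a panel of 37. These lists held 504 symbols, of which 381 were tested. Further list members are named with their values and were chosen after these were seen. A few genes that enter these counts are not reported here. The members and lists were chosen with earlier results of these data known. Alternatives were other scalings, filters, tools (DESeq2 1.42.0, limma-voom with limma 3.58.1), halved counts, sets of libraries, call rules and leaving out each library.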

Additional observations from a re-analysis of the deposited data

Results flagged for a closer look

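Of 54 genes among the largest changes and the panel of named genes, 27 had a BMP2 effect at 50 ng/ml that differed between day 6 and day 1, by edgeR's quasi-likelihood test of the difference itself over 12 libraries. The share over all 12056 genes was 12.5%. The largest changes were chosen for their size on day 6, in libraries that this test also uses, and that choice favours passing. On the log2 scale, day 6 minus day 1, it was more positive on day 6 by 6.19 in Lgr6, 4.04 in Cd300lb, 3.13 in Dmp1, 2.9 in Fetub, 2.83 in Rnf150, 2.44 in Enpp1, 2.28 in Rab27b and 2.23 in Cd244. Smaller positive differences were 1.91 in Adam12, 1.77 in Id3, 1.6 in Hes1, 1.55 in Id1, 1.01 in Ptgs2 and 0.92 in Col1a1. The difference was negative in Ngfr (-7.0), Itgbl1 (-6.51), F13a1 (-6.35), Tnnc2 (-5.43), Apod (-5.26), Dock10 (-4.58), Itga8 (-4.35), Enpp2 (-4.23), Igf1 (-4.2), Gfra2 (-4.14), Aff3 (-3.47), Gdf6 (-3.18) and Acta2 (-1.25). Fitted values of Lgr6 and Itgbl1 rest on libraries with few reads and depend on the prior count.

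Both pairs of day 6 ran in opposite directions in Tnfrsf11b and Fgf7, and that difference was not tested. Tnfrsf11b, which encodes the osteoclast inhibitor osteoprotegerin, had 372 CPM with BMP2 and 67.1 with vehicle, a log2 difference of 2.47, and 192 with BMP2 plus GSK126 and 399 with GSK126 alone, a difference of -1.05. Fgf7, a growth factor for epithelial cells, had 18.7 CPM with BMP2 and 63.7 with vehicle (-1.77), and 99.5 with BMP2 plus GSK126 and 43.3 with GSK126 alone (1.2).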

How the results depend on the processing

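The main limit is that each condition is 1 library. The 1663 calls became 715 with the 4 libraries alone, 4058 with all 12, 2546 with DESeq2, 1084 with at least 1.5-fold in each pair and 271 at an adjusted p of 0.01 or less; leaving out any 1 library gave 676 to 1760. Of the list members and other named genes with a value in the 4-library fit, 338 kept their side of the threshold, 57 lost their call and 5 gained one. The 338 include genes called in neither fit, so they do not count the calls that held. Over all tested genes 699 of the 1663 calls held there. No gene reported here changed direction under an alternative while called. For the day difference, 1504 calls became 462 with the 8 libraries without 10 ng/ml and 321 to 2726 with 1 library left out. For 50 against 10 ng/ml, 6 calls became 27 with library size alone, 64 without the filter on low counts, 779 with DESeq2, 0 with limma-voom (1989 at an unadjusted p under 0.05), 1423 with all 12 libraries and 0 to 470 with 1 library left out. The cause of these shifts was not tested. The labels carry no replicate numbers to use as a block. The pairing is by GSK126, which was a term of each fit, and the fit of the 2 pairs alone is the 4-library one. Genes near 0 are limited by depth to the counting intervals given.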

Other observations

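At least 2-fold changes of opposite sign in the pairs were seen in 21 genes, and 3 of them not described above are given here, named after their values were seen. Egln1, an oxygen-sensing prolyl hydroxylase, had 53.69, 50.61 and 314.1 CPM in the libraries lacking GSK126, in dose order of 0, 10 and 50 ng/ml BMP2, and 258.4, 40.95 and 38.42 in those given it. Sap30l, a histone deacetylase complex subunit, had 19.5, 20.2 and 570.4 CPM without GSK126 and 105.9, 23.55 and 23.37 with it. Both genes were thus high in the library with BMP2 at 50 ng/ml and in that with GSK126 alone. Accn1, an ion channel subunit, was listed at 0 in these same 2 libraries, and at 45.62 CPM with vehicle, 128.4 with 10 ng/ml, 104.1 with 10 ng/ml plus GSK126 and 115.9 with 50 ng/ml plus GSK126.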
